A study of Homo sapiens with 34 samples.

Results

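The enzymes that build purine and pyrimidine nucleotides were followed as a set of 30 genes in U2OS *Bmal1*:*luc* cells, derived from a human osteosarcoma and carrying a luciferase reporter of the circadian clock. The members were chosen by name from the pathways that use ribose 5-phosphate, the sugar phosphate made by the pentose phosphate pathway (PPP), and all 30 were found and expressed among the 28690 loci in the tables, of which 13979 had a mean FPKM, fragments per kilobase scaled to library depth, of at least 1. RNA was sequenced at 12 time points, labelled CT00 to CT44 at intervals of 4 hr, from cells synchronized with dexamethasone and kept in 5 mM 6-aminonicotinamide (6AN), an inhibitor of the NADPH-producing PPP enzymes, or in the same solvent, dimethyl sulfoxide (DMSO), as control. How long the cells had been in 6AN at the label CT00 is not given in the sources used here. There was 1 library per condition and time point, so the 12 points of a condition show the spread over time within 1 experiment and not between cultures. BMAL1, CLOCK, H3K4me3, H3K9ac and input were profiled by ChIP-seq after 24 hr in 6AN or DMSO, with 1 library each.

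Purine synthesis assembles the ring on phosphoribosyl pyrophosphate (PRPP) until inosine monophosphate (IMP) is reached, which is then turned into AMP or GMP. Pyrimidine synthesis makes the ring first and joins it to PRPP to give uridine monophosphate (UMP), the source of CTP. Ribonucleotide reductase converts ribonucleotides to deoxynucleotides for DNA, thymidylate synthase makes the thymine nucleotide, and salvage enzymes recover free bases and nucleosides. In dividing cells, several of the deoxynucleotide enzymes are known to be made mainly around S phase.

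Of 8 osteoblast lineage markers, 5 had a median of at least 1 FPKM in both conditions, and the summed level of the list was 427 to 579 FPKM in control and 138 to 305 FPKM in 6AN. *SPARC* (290 to 368 FPKM) and *COL1A1* (84.5 to 170 FPKM), bone matrix genes, made up most of the control sum and were lower in 6AN at all 12 time points, by mean log2 differences of -1.35 ± 0.29 and -2.02 ± 0.40 (SD). *RUNX2*, the osteoblast lineage regulator, lay between 11.9 and 17.6 FPKM in control, *ALPL* between 4.83 and 9.59 FPKM, and the row that *BGLAP* shares with *PMF1* between 19.8 and 26.9 FPKM. *SP7* and *IBSP* had a median of 0 in both conditions, and *COL1A2* did not exceed 0.106 FPKM in any library. Among 9 markers of other cell types, the summed level was 60.1 to 89.8 FPKM in control and 32.1 to 77.6 FPKM in 6AN, nearly all of it from *TUBB3*. Of the 9, *TUBB3* had a median of at least 1 FPKM in both conditions and *EPCAM* in control only. *EPCAM* ranged from 0.631 to 1.41 FPKM in control (median, 1.13) and from 0.362 to 1.69 FPKM in 6AN (median, 0.651). The leukocyte markers *PTPRC* and *CD3E* stayed at or below 0.446 FPKM. Depth was known only relative to other libraries of the same table, from 0.581 at CT04 to 1.31 in control and from 0.696 at CT20 to 1.55 in 6AN.

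Control and 6AN levels were set side by side as a description, because each table had been normalized on its own, and a difference is the mean of the 12 matched differences in log2(FPKM + 1), 6AN minus control, ± SD. With 6AN, 11 of the 30 genes were lower at all 12 time points, against 20.4% of all expressed loci, and 2 were higher at all 12, against 13.0%. For 7 genes the whole 6AN range lay below the control range (10.3% of all loci), and for 1 gene it lay above (5.89%). The median difference over the 30 genes was -0.22, beside -0.04 over all expressed loci. In bulk RNA, fewer cells making a transcript and less transcript per cell cannot be told apart. When each library was rescaled to one median, *ADSL* and *CTPS1* left the set of 11 and *GART* left the set of 7.

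The largest differences were in the step from ribonucleotides to DNA precursors, where all 4 members were lower at every time point, with a median difference of -0.89. *RRM2* encodes the small, radical-bearing subunit of ribonucleotide reductase and lies at chr2:10122568-10131419 (hg38). It ranged from 64.3 to 81.7 FPKM in control, with a median of 73.6, and from 12.1 to 31.6 FPKM in 6AN, with a median of 20.7. The lowest control library therefore had more than the highest 6AN library, and the difference was -1.77 ± 0.35 (SD, n = 12), or 3.44-fold lower by the means. Only 0.515% of expressed loci had a more negative difference. *RRM1*, the large subunit of the same enzyme (chr11:4094694-4138876), ranged from 26.9 to 39.2 FPKM in control (median, 32.7) and from 13.7 to 25 FPKM in 6AN (median, 16.8), a difference of -0.84 ± 0.22. The small subunit thus had the larger difference.

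*TYMS*, thymidylate synthase (chr18:596998-712662), ranged from 91.1 to 116 FPKM in control (median, 103) and from 49.1 to 63.4 FPKM in 6AN (median, 53.5). Its difference of -0.93 ± 0.10 had the smallest SD of the 5 largest. *DTYMK*, the kinase that converts dTMP to dTDP (chr2:241675742-241686968), ranged from 40.2 to 64.4 FPKM in control (median, 46.3) and from 21 to 47.2 FPKM in 6AN (median, 26.5). It was lower at all 12 matched points, with a difference of -0.66 ± 0.23, but its ranges overlapped. *TK1*, the cytosolic thymidine kinase of the salvage route (chr17:78174079-78187204), followed the same direction. It ranged from 74.9 to 112 FPKM in control (median, 87.7) and from 19.2 to 55.7 FPKM in 6AN (median, 30.7), without overlap, and the difference of -1.43 ± 0.43 was the second largest of the set. The *TYMS* row overlaps those of *CLUL1*, *TYMSOS* and *ENOSF1* in the annotation and strand use is not stated, so a part of its reads may belong to a neighbor.

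**Figure D1:**
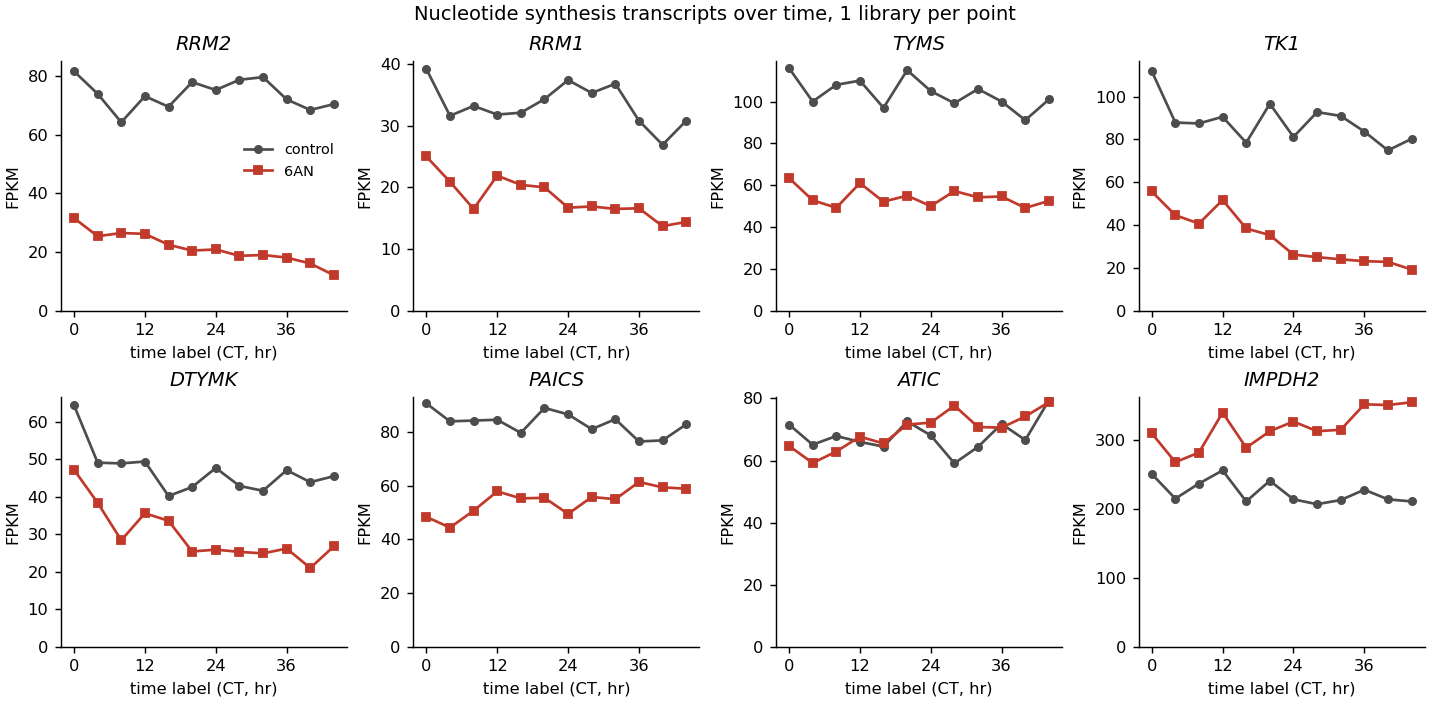
FPKM (y axis, from 0) against the time label in hr (x axis) for 8 genes, with 1 library per point, gray circles for control and red squares for 6AN. *RRM2*, *RRM1*, *TYMS*, *TK1* and *PAICS* in 6AN stay below every control value, *IMPDH2* stays above every control value, and *ATIC* overlaps.

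All 5 genes were lower at every time point before CT24 and from CT24 on, but not by the same amount. The *RRM2* difference was -1.50 ± 0.22 over CT00 to CT20 and -2.04 ± 0.22 over CT24 to CT44 (SD, n = 6 each). The *TK1* difference went from -1.05 ± 0.21 to -1.80 ± 0.15, and that of *RRM1* from -0.68 ± 0.16 to -1.01 ± 0.11. For *TYMS* the values were -0.94 ± 0.11 and -0.91 ± 0.09, which differ by less than either SD. The changes between these periods were not tested.

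Ratios within a library do not depend on the scaling of the tables. The *RRM2* to *RRM1* ratio ranged from 1.94 to 2.55 in control (median, 2.25) and from 0.84 to 1.6 in 6AN (median, 1.16), without overlap. The *TK1* to *TK2* ratio, cytosolic over mitochondrial thymidine kinase, ranged from 7.97 to 12.7 in control (median, 9.9) and from 1.51 to 6.94 in 6AN (median, 3.46). The *TYMS* to *RRM1* ratio had medians of 3.2 and 2.98 and was lower in 6AN at 6 of 12 time points. The proportions of *RRM2* to *RRM1* and of *TK1* to *TK2* therefore did not overlap between conditions, whereas those of *TYMS* to *RRM1* overlapped.

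**Figure D2:**
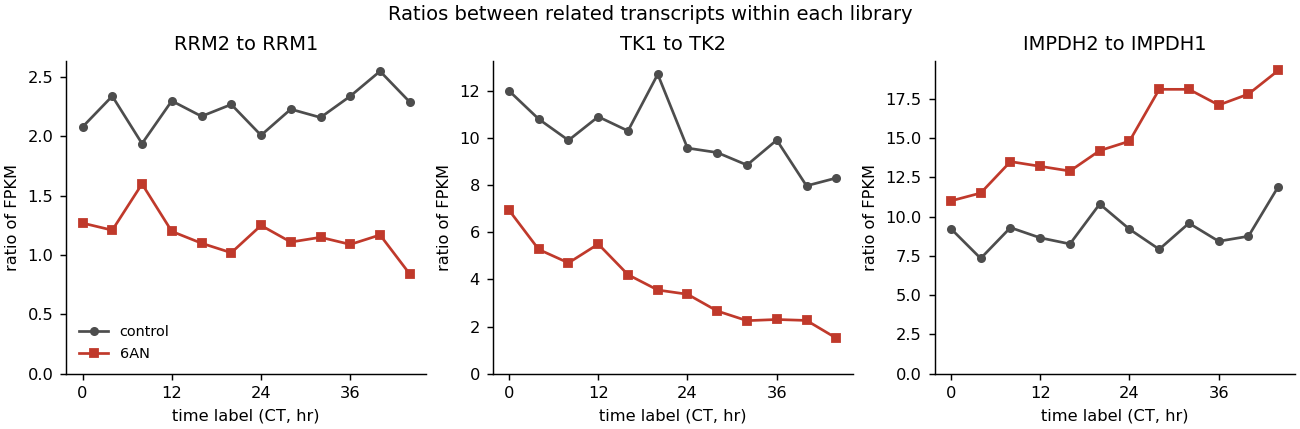
Ratio of FPKM between related transcripts (y axis, from 0) against the time label in hr (x axis), computed within each library, for control (gray) and 6AN (red). The *RRM2* to *RRM1* and *TK1* to *TK2* ratios do not overlap between conditions, and the *IMPDH2* to *IMPDH1* ratio is higher in 6AN at all 12 time points.

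The 250 bases before the RefSeq start (GRCh38.p14) of these 5 genes are shown because the transcripts moved in the same direction. They are written 5′ to 3′ on the gene's strand, with capitals marking matches on either strand to the E2F-type heptamer TTCCCGC and its variants, which read TTCGCGC in the first, TTGCCGC in the second and TTGGCGC in the third, or to CCAAT, the core of the box bound by NF-Y.
RRM2: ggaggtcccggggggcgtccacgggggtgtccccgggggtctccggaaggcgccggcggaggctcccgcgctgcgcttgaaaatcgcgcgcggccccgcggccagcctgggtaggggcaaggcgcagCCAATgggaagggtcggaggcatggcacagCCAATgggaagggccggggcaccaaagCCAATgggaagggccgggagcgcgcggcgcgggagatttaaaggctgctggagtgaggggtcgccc
RRM1: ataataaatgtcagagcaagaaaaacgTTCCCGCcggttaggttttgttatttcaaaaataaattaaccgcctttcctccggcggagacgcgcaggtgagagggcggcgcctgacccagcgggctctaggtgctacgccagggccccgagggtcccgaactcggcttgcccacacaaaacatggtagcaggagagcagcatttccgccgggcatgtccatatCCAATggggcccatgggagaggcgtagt
TYMS: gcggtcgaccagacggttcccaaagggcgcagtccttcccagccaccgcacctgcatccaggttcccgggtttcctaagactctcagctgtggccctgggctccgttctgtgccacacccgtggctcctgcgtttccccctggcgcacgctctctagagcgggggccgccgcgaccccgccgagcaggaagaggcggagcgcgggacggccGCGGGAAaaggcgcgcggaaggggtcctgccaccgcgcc
DTYMK: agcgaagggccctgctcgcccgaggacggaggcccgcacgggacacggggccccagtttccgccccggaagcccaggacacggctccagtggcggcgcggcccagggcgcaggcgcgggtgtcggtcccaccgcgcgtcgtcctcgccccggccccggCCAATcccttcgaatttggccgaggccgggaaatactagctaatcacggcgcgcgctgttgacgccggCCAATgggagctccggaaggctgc
TK1: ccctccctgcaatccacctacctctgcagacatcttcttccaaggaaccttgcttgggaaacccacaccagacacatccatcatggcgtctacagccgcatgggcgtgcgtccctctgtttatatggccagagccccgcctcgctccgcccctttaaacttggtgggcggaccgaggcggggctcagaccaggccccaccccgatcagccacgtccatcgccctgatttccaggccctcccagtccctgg
They lie at chr2:10122489-10122738 (plus strand), chr11:4094435-4094684 (plus), chr18:657403-657652 (plus), chr2:241686816-241687065 (minus) and chr17:78187205-78187454 (minus). *RRM2* holds CCAAT at 3 positions, which start 123, 93 and 66 bases before the start and which all read on the plus strand. *DTYMK* holds it at 2 positions, 92 and 24 bases before the start. *RRM1* has a CCAAT 28 bases and an E2F-type heptamer 223 bases before the start, and *TYMS* has a heptamer 39 bases before it. No such letters are in the *TK1* window. The *RRM2*, *DTYMK* and *TYMS* matches lie inside the deposited loci, which begin before the RefSeq starts. Among 35116 promoter windows of this length, which were not limited to genes expressed here, 32% hold CCAAT and 10.9% an E2F-type heptamer. Among the 28 members with an entry, all expressed, the counts were 8 (28.6%) and 6 (21.4%). The *PAICS* entry, counted among the 28, starts elsewhere than the deposited *PAICS* locus. TTTGAA, the letters of the cell cycle homology region, was in 3 of the 28 (10.7%), *RRM1* among them, and in 13.3% of all windows. A match is a description of the letters and not a measured site.

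Outside the deoxynucleotide and thymidylate role, 7 of 26 genes were lower at all 12 time points, or 26.9% against 20.4% of all loci, and 2 were higher, or 7.69% against 13.0%. Their median difference was -0.15, and they include *TK1*. Without *TK1*, 6 of 25 were lower at all 12 time points (24%, against 20.4%) and 2 higher (8%, against 13.0%). The median difference of these 25 was -0.13.

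**Figure D3:**
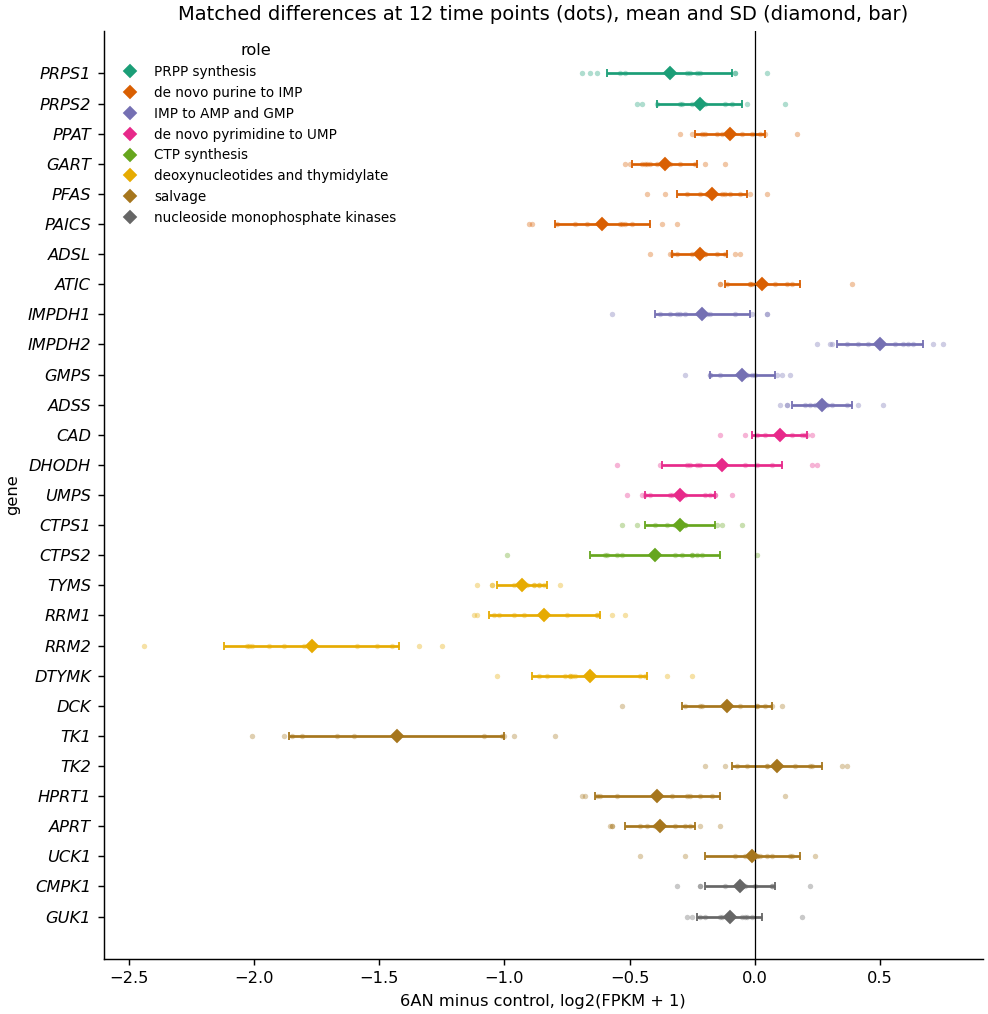
Differences in log2(FPKM + 1), 6AN minus control (x axis), for 29 genes (y axis) colored by role. Pale dots are the 12 matched time points, and diamonds and bars are their mean ± SD. *UCK2* is left out because its row also holds a microRNA. The deoxynucleotide group and *TK1* lie farthest to the left, and *IMPDH2* (0.50) and *ADSS* (0.27) are the only genes with all 12 points above 0.

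PRPP, the activated ribose on which both pathways depend, is made by 2 widely expressed isoenzymes. *PRPS1* ranged from 11.5 to 16 FPKM in control (median, 13.5) and from 8.43 to 12.7 FPKM in 6AN (median, 10.6), and was lower at 11 of 12 time points (-0.34 ± 0.25). *PRPS2* ranged from 12.9 to 17.4 FPKM in control (median, 15.7) and from 11.3 to 14.5 FPKM in 6AN (median, 13.5), and was also lower at 11 of 12 (-0.22 ± 0.17). Their ranges overlapped between conditions. Neither was called lower by the rule of all 12 points.

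Of the 6 enzymes from PRPP to IMP, 3 were lower at every time point (50%, against 20.4% of all expressed loci) and none was higher (against 13.0%). *PAICS*, which carries out the carboxylase and SAICAR synthetase steps, showed the largest difference of this route. It ranged from 76.5 to 90.7 FPKM in control (median, 84.2) and from 44.4 to 61.4 FPKM in 6AN (median, 55.4), a difference of -0.61 ± 0.19 without overlap. *GART*, the trifunctional enzyme of the early ring steps, ranged from 45.3 to 53.6 FPKM in control (median, 49.8) and from 34.4 to 45.3 FPKM in 6AN (median, 38.5). Its ranges met without overlapping and its difference was -0.36 ± 0.13. *ADSL*, adenylosuccinate lyase, ranged from 80.9 to 96 FPKM in control (median, 86.9) and from 68.9 to 81.4 FPKM in 6AN (median, 75.2), with a difference of -0.22 ± 0.11.

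The other three enzymes of this route differed less. *PPAT*, the amidotransferase that commits PRPP to purines, ranged from 15.9 to 21.1 FPKM in control (median, 18.2) and from 14.9 to 18.7 FPKM in 6AN (median, 17.1). *PFAS*, which uses glutamine for a later nitrogen, ranged from 9.86 to 12.2 FPKM in control (median, 10.9) and from 8.65 to 10.9 FPKM in 6AN (median, 9.62). *ATIC*, which closes the ring to IMP, ranged from 59.1 to 79.4 FPKM in control (median, 67.2) and from 59.2 to 78.8 FPKM in 6AN (median, 70.7). *PPAT* was lower in 6AN at 9, *PFAS* at 11 and *ATIC* at 6 of the 12 time points, and the mean differences were -0.10 ± 0.14, -0.17 ± 0.14 and 0.03 ± 0.15. *PPAT* and *PAICS* are read in opposite directions from neighboring starts and overlap in RefSeq, so shared reads cannot be told apart here.

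The branch from IMP was the only group with genes higher at all 12 time points. *IMPDH2*, the main isoenzyme of the rate-limiting step to GMP, had the highest median FPKM of the 30 genes. It ranged from 207 to 256 FPKM in control (median, 215) and from 268 to 355 FPKM in 6AN (median, 314). The 6AN range lay wholly above that of control, and the difference of 0.50 ± 0.17 was made up of 0.35 ± 0.07 over the first 6 points and 0.64 ± 0.07 over the last 6. *ADSS*, adenylosuccinate synthase on the AMP side, ranged from 19.3 to 25.9 FPKM in control (median, 21.2) and from 22 to 31 FPKM in 6AN (median, 26), a difference of 0.27 ± 0.12 with overlapping ranges.

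The other IMP dehydrogenase did not follow *IMPDH2*. *IMPDH1* ranged from 17.8 to 29.6 FPKM in control (median, 25.5) and from 17.3 to 28.2 FPKM in 6AN (median, 21.4), and was lower at 10 of 12 time points (-0.21 ± 0.19). The *IMPDH2* to *IMPDH1* ratio ranged from 7.34 to 11.9 in control (median, 8.98) and from 11 to 19.3 in 6AN (median, 14.5), higher in 6AN at all 12 points. *GMPS*, which aminates XMP to GMP, ranged from 22.4 to 27.7 FPKM in control (median, 25.2) and from 22.1 to 28 FPKM in 6AN (median, 24.1), with a difference of -0.05 ± 0.13.

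In pyrimidine synthesis the first and last enzymes stood apart. *CAD*, the trifunctional enzyme that starts the route, ranged from 19.2 to 25 FPKM in control (median, 21.6) and from 22 to 25.2 FPKM in 6AN (median, 23.3), and was higher in 6AN at 10 of 12 time points (0.10 ± 0.11). *DHODH*, the mitochondrial dihydroorotate dehydrogenase, ranged from 4.64 to 7.55 FPKM in control (median, 6.13) and from 4.57 to 6.32 FPKM in 6AN (median, 5.33), with a difference of -0.13 ± 0.24. *UMPS*, which joins orotate to PRPP and yields UMP, ranged from 5.38 to 6.17 FPKM in control (median, 5.86) and from 3.62 to 5.49 FPKM in 6AN (median, 4.59). It was lower at every time point (-0.30 ± 0.14), with an overlap of its ranges.

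Both CTP synthases, which aminate UTP, were on the lower side. *CTPS1* ranged from 36.8 to 48.3 FPKM in control (median, 43.7) and from 31.5 to 38.6 FPKM in 6AN (median, 34.8), lower at all 12 points (-0.30 ± 0.14). *CTPS2*, the gene with the lowest median FPKM of the set, ranged from 2.42 to 3.61 FPKM in control (median, 2.75) and from 1.31 to 2.64 FPKM in 6AN (median, 2.08), lower at 11 of 12 (-0.40 ± 0.26). The *CTPS1* to *CTPS2* ratio had medians of 15.7 in control and 16.8 in 6AN, with overlapping ranges.

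Among the 7 salvage genes, *TK1* and *APRT* were lower at all 12 time points (28.6%, against 20.4% of all expressed loci). *APRT*, which joins adenine to PRPP, ranged from 128 to 177 FPKM in control (median, 139) and from 102 to 118 FPKM in 6AN (median, 108), a difference of -0.38 ± 0.14 without overlap. *HPRT1*, its counterpart for hypoxanthine and guanine, ranged from 21.4 to 30.9 FPKM in control (median, 27.4) and from 15.7 to 24.3 FPKM in 6AN (median, 20.1), lower at 11 of 12 (-0.39 ± 0.25). Of these PRPP-using enzymes, *APRT* alone met the rule of all 12 points, and the *HPRT1* ranges overlapped.

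The remaining nucleoside kinases lay near the level of control. *DCK*, deoxycytidine kinase, ranged from 21.5 to 27.6 FPKM in control (median, 24.4) and from 18.9 to 24.9 FPKM in 6AN (median, 22.7), with a difference of -0.11 ± 0.18. *TK2* ranged from 7.6 to 10.3 FPKM in control (median, 8.67) and from 7.76 to 12.8 FPKM in 6AN (median, 9.4), with a difference of 0.09 ± 0.18. *UCK1*, a uridine-cytidine kinase whose row overlaps *POMT1*, ranged from 16.2 to 20.4 FPKM in control (median, 18.1) and from 14.6 to 20.9 FPKM in 6AN (median, 17.9), with a difference of -0.01 ± 0.19. The row of *UCK2* also names the microRNA gene *MIR3658*. Its values reached 2898 FPKM in control (lowest, 15; median, 16.6) and 5543 FPKM in 6AN (lowest, 13.3; median, 15.2), so no difference of *UCK2* itself can be read from it (0.02 ± 4.09 for the row).

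Of the monophosphate kinases, *CMPK1*, which acts on UMP and CMP, ranged from 47.1 to 55.4 FPKM in control (median, 52.3) and from 44.4 to 59.5 FPKM in 6AN (median, 50.6). *GUK1*, the guanylate kinase, ranged from 142 to 186 FPKM in control (median, 168) and from 137 to 175 FPKM in 6AN (median, 149). *CMPK1* was lower in 6AN at 8 and *GUK1* at 11 of the 12 points, with differences of -0.06 ± 0.14 and -0.10 ± 0.13.

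Trends over time were tested within each condition by limma, with a linear term in hours and Benjamini-Hochberg adjustment over the 13979 expressed loci, and calls required an adjusted p no higher than 0.05. In 6AN, 12 of the 30 genes (40%) had a trend, against 25.4% of all expressed loci. Of these, 5 fell (13.1% of all loci did) and 7 rose (12.3%). In control 1 of the 30 genes, *CAD*, had a trend, against 6.27% of all expressed loci. It fell, as did 3.13% of all loci, and 0 genes rose, where 3.13% of all loci did. *CAD* fell by 0.14 ± 0.03 (SE) on the log2 scale per 24 hr in control (limma adjusted p = 0.0264), from 25 FPKM at CT00 to 19.2 at CT40 and 22 at CT44, and its slope in 6AN was 0.00 ± 0.03. Without CT00, CT04, CT32, CT36 or CT40, or with the last 6 time points set against the first 6, this call was lost.

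The steepest falls in 6AN were again in thymidine and deoxynucleotide genes. *TK1* fell by 0.80 ± 0.08 on the log2 scale per 24 hr (limma adjusted p = 5.23e-05), from 55.7 FPKM at CT00 to 26.2 at CT24 and 19.2 at CT44. *RRM2* fell by 0.56 ± 0.05 per 24 hr (limma adjusted p = 5.44e-05), from 31.6 FPKM at CT00 to 20.9 at CT24 and 12.1 at CT44. *DTYMK* fell by 0.43 ± 0.09 (limma adjusted p = 0.00541), from 47.2 FPKM at CT00 to 25.9 at CT24 and 26.8 at CT44. *RRM1* fell by 0.34 ± 0.07 (limma adjusted p = 0.00324), from 25 FPKM at CT00 to 16.7 at CT24 and 14.4 at CT44. These 4 calls held under each alternative and without any single time point.

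In control the same 4 genes were not called. Their slopes there were -0.15 ± 0.06 for *TK1*, -0.02 ± 0.05 for *RRM2*, -0.17 ± 0.07 for *DTYMK* and -0.10 ± 0.07 for *RRM1* (log2 per 24 hr ± SE), and the difference in slope between conditions was not tested. *TYMS* had slopes of -0.09 ± 0.04 in control and -0.07 ± 0.05 in 6AN, neither of them called. *IMPDH1* fell in 6AN by 0.26 ± 0.07 (limma adjusted p = 0.0137), from 28.2 FPKM at CT00 to 18.4 at CT44, beside a slope of -0.21 ± 0.07 in control (limma adjusted p = 0.132). Its 6AN call was lost without CT00.

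**Figure D4:**
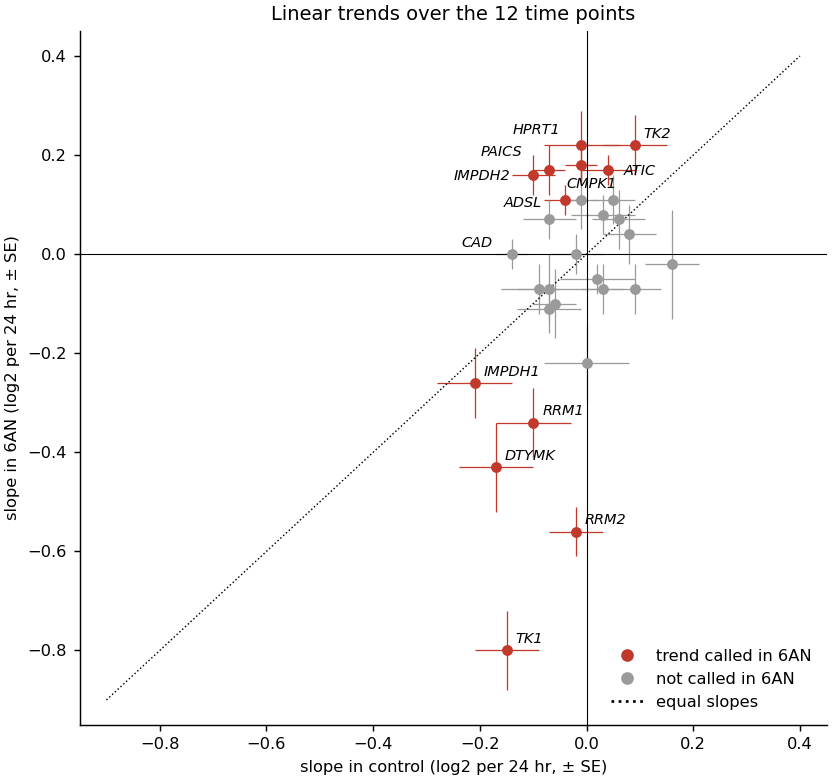
Slopes of log2(FPKM + 1) per 24 hr with their SE in control (x axis) and 6AN (y axis) for 29 genes, with *UCK2* left out. Red points had a trend called in 6AN, and the named gray point, *CAD*, was called in control. *TK1*, *RRM2*, *DTYMK* and *RRM1* lie well below the dotted line of equal slopes.

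The genes that rose in 6AN came from the purine route, from salvage and, with *CMPK1*, from the monophosphate kinases, and had smaller slopes. *ATIC* rose by 0.17 ± 0.03 per 24 hr (limma adjusted p = 0.00365), from 64.7 FPKM at CT00 to 78.8 at CT44. *CMPK1* rose by 0.18 ± 0.04 (limma adjusted p = 0.00778), from 44.4 to 59.5 FPKM between the same labels. Both calls held without any single time point, but that of *CMPK1* was lost when the last 6 time points were set against the first 6.

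The other 5 rising genes depended on single time points, and all but *ADSL* also lost their call in the comparison of the last 6 with the first 6. *PAICS* rose by 0.17 ± 0.05 (limma adjusted p = 0.018), from 48.4 FPKM at CT00 to 58.9 at CT44, and was not called without CT00 or CT04. *IMPDH2* rose by 0.16 ± 0.04 (adjusted p = 0.0213), from 310 to 355 FPKM, and was not called without CT04, CT40 or CT44. *ADSL* rose by 0.11 ± 0.03 (adjusted p = 0.0201) and was not called without CT04 or CT44. *TK2* rose by 0.22 ± 0.06 (adjusted p = 0.0182), from 8.02 to 12.8 FPKM, and was not called without CT00 or CT44. *HPRT1* rose by 0.22 ± 0.07 (adjusted p = 0.044), from 16.8 to 23.5 FPKM, and lost its call in 10 of the 12 leave-outs. *PAICS*, *ADSL* and *HPRT1* thus moved up in 6AN while most or all of their values stayed below the matched control.

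A 24 hr rhythm was tested within each condition with a cosine and a sine beside the linear trend (limma F test). The period was fixed at 24 hr. None of the 30 genes was called in either condition at the same adjusted threshold, where 1 of the 13979 loci (0.00715%) was called in control and 0 in 6AN. With so few calls among all loci, a missing call does not show that a rhythm is absent. The paper, with another method and threshold, reported circadian transcripts in both conditions and longer periods under 6AN. At an unadjusted p under 0.05 there was 1 gene in control, *PPAT* (p = 0.0243 by limma, peak to trough of 0.24 on the log2 scale), against 6.79% of all loci. In 6AN there were 6 genes, *TK1*, *PAICS*, *UCK2*, *UMPS*, *PRPS1* and *IMPDH1*, with p from 0.0128 to 0.0471 by limma, against 7.82% of all loci. The row of *UCK2* is shared with *MIR3658* and reached 5543 FPKM in 6AN, so its p cannot be read as a rhythm of *UCK2*.

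Genes outside the set were taken from lists of related pathways. Of 42 expressed loci for other nucleotide enzymes, carriers and folate enzymes, 18 were lower at all 12 time points (42.9%) and 2 were higher (4.76%). The shares of all expressed loci were 20.4% and 13.0%. The median difference of the list was -0.28. *NME4*, a mitochondrial nucleoside diphosphate kinase, ranged from 61.1 to 80.7 FPKM in control and from 29.5 to 45.3 FPKM in 6AN (-0.93 ± 0.12). *XDH*, which oxidizes purine bases, and *DCTPP1*, which removes dCTP, were also lower at all 12 points (-0.80 ± 0.22 and -0.75 ± 0.16).

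The 2 higher genes of that list handle nucleosides. *SLC29A1*, the equilibrative nucleoside transporter, ranged from 48.1 to 86.6 FPKM in control and from 79 to 175 FPKM in 6AN (0.81 ± 0.18). It fell over time in both conditions, on the log2 scale per 24 hr by 0.37 ± 0.05 in control (limma adjusted p = 0.0025). In 6AN the fall was 0.61 ± 0.06 (limma adjusted p = 6.22e-05), and the difference in slope was not tested. *UPP1*, uridine phosphorylase, ranged from 26.2 to 38.4 FPKM in control and from 40 to 58.4 FPKM in 6AN (0.65 ± 0.20), without overlap. *RRM2B*, the ribonucleotide reductase subunit known as a p53 target and named here after its values were seen, had a median of 53.1 FPKM in control and 53.9 FPKM in 6AN, and rose in 6AN by 0.48 ± 0.05 per 24 hr (limma adjusted p = 7.5e-05). Its slope in control was 0.11 ± 0.03 (limma adjusted p = 0.079) and was not called.

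Proliferation markers moved with the deoxynucleotide genes. Their summed level over 20 genes, none of them a member, was 936 to 1246 FPKM in control and 397 to 776 FPKM in 6AN. Of the 20, 18 were lower at all 12 time points (90%, against 20.4% of all expressed loci) and 0 higher (against 13.0%). Their median difference was -0.97. In 6AN, 16 fell over time, as did 13.1% of all loci, while in control 0 had a called trend, against 6.27%. *GINS2*, a replication fork component, had a difference of -1.51 ± 0.42, *CCNE2*, a G1/S cyclin, of -1.29 ± 0.28, and *MCM4*, a helicase subunit, of -1.24 ± 0.25. The part of cell proliferation in the lower *RRM2*, *TK1*, *TYMS*, *RRM1* and *DTYMK* was not tested.

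Among 16 regulators of these pathways, 6 were lower (37.5%) and 4 higher (25%) at all 12 time points, against 20.4% and 13.0% of all expressed loci. *E2F1*, an activator of S phase genes, ranged from 15.6 to 19.7 FPKM in control and from 6.82 to 12.1 FPKM in 6AN (-0.79 ± 0.25). *E2F2*, *E2F8* and *RBL1*, listed without regard to whether they activate or repress, were lower as well (-1.05 ± 0.39, -0.95 ± 0.41 and -0.82 ± 0.35). *E2F8* was low in 6AN, at 0.364 to 2 FPKM. *MYC*, known to activate nucleotide synthesis genes, ranged from 33.5 to 60.4 FPKM in control and from 88.8 to 124 FPKM in 6AN (1.14 ± 0.16). *ATF4*, the amino acid stress regulator, ranged from 419 to 674 FPKM in control and from 858 to 1118 FPKM in 6AN (0.93 ± 0.14). Of 9 PPP genes, *PGD* was higher at all 12 points (0.36 ± 0.11) and *TALDO1* lower (-0.34 ± 0.14), and the median difference was 0.05. Each is 11.1% of that list, which does not exceed the shares of all expressed loci (13.0% higher and 20.4% lower).

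**Figure D5:**
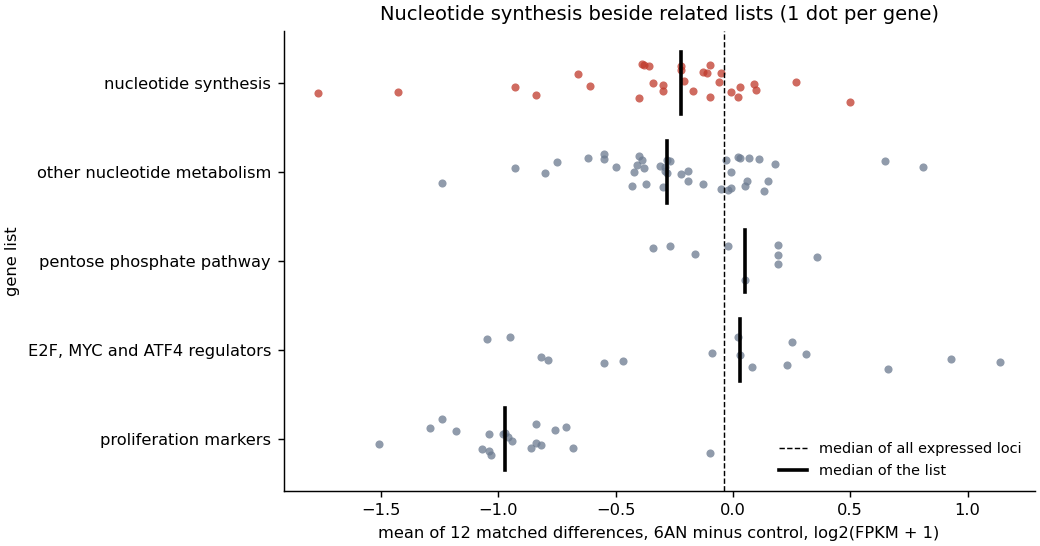
Mean difference in log2(FPKM + 1), 6AN minus control (x axis), for each expressed gene of 5 lists (y axis). Dots are genes, spread vertically only to separate them, thick bars are list medians, and the dashed line is the median of all expressed loci (-0.04). Nucleotide synthesis genes have a median of -0.22 and proliferation markers of -0.97.

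The ChIP-seq data were examined for clock factor binding at the same genes, with no replicate. The control and 6AN libraries of BMAL1 held 7462051 and 7896480 tags, and those of CLOCK held 4078867 and 4550722. Of 147 sites shared by BMAL1 and CLOCK in control, 0 were assigned to a member, and of 439 in 6AN, 1 was, in an intron 32888 bp from the start of *TK2* (chr16:66516438-66517437, hg38). There the signal, in tags per 1000 bp scaled to 10000000 tags, for BMAL1 was 20.8 (control) and 24.7 (6AN), and for CLOCK it was 22.1 and 35.2, beside 9.02 and 11.4 for input. The median of the 439 sites was 26.1 and 34.8 for BMAL1 and 25.7 and 53.8 for CLOCK. All 439, the *TK2* site among them, were listed because both factors had a peak in 6AN, which favors higher 6AN signal there. The H3K9ac libraries held 1409550 (control) and 4700142 (6AN) tags, and those of H3K4me3 held 3203238 and 4571906. H3K9ac at the *TK2* site was 35.5 in control and 31.9 in 6AN, and H3K4me3 was 6.24 and 17.5. The control H3K4me3 value lay below the control input of 9.02. At these depths the values of both marks stand for few tags, so no difference in either mark can be read from them. With 1 library each, the differences at this site have no error and were not tested.

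Peaks called in any BMAL1 or CLOCK library lay within 10 kb of 15 of the 30 genes, where 32.2% of expressed loci had one. For CLOCK the number was 6 of 30, where 10.8% of expressed loci had one. *PPAT* and *PAICS* shared a CLOCK peak called in both conditions, at chr4:56436305-56436507, which lies 657 bp inside the *PAICS* locus. CLOCK peaks were called only in 6AN at *DHODH* (centered 81 bp after the start), *ADSL* (180 bp after the locus start), *TK2* and *CTPS1* (24159 bp after the start). BMAL1 peaks were called in both conditions 2253 bp before *RRM2* and 5418 bp before *CAD*. At *DTYMK* a BMAL1 peak centered 104 bp before the start was called in 6AN alone, and at *TK1* one was called in control, 10435 bp after the start. The other peaks near members were for BMAL1 in a single library, in control at *ATIC*, *IMPDH2*, *CTPS1*, *ADSL* and *DCK* and in 6AN at *PFAS*, *TK2* and *APRT*. A peak called in 1 library and not in another was not tested as a difference.

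Of all 35116 promoter windows, which were not limited to genes expressed here, 6.34% held the E-box CACGTG, the motif that BMAL1/CLOCK bind. It was in the 250 bases before the start of 4 of the 28 members with a RefSeq entry (14.3%). These 4 are printed because they combine the letters with peaks of the same factors, 5′ to 3′ on the gene's strand with the E-box in capitals.
PPAT: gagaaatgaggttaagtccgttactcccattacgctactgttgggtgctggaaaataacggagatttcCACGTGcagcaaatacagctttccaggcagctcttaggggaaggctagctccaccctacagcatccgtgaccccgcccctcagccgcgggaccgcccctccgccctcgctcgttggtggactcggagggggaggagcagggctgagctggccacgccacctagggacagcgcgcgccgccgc
ATIC: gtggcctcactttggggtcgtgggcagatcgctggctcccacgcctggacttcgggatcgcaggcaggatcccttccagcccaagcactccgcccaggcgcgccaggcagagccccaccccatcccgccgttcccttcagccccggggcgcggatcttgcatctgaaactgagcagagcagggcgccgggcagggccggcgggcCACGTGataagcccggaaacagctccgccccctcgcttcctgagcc
DHODH: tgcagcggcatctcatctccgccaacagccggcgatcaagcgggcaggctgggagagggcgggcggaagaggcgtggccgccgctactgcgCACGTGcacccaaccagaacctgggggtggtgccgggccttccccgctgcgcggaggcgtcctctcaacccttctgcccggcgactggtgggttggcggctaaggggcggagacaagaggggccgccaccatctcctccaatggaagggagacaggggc
DCK: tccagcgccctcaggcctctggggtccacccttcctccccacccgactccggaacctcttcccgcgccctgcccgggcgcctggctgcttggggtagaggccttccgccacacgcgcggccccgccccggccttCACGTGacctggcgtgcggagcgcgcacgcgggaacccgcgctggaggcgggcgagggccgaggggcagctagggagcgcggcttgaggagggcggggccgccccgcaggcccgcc
They lie at chr4:56435616-56435865 (minus strand), chr2:215311809-215312058 (plus), chr16:72008494-72008743 (plus) and chr4:70993399-70993648 (plus) on GRCh38.p14. In *ATIC*, 46 bases before the start, and in *DCK*, 116 bases before it, the E-box lay inside a peak called for BMAL1 in control. In *PPAT* and *DHODH* it lay outside the called peaks, 182 and 159 bases before the start. The *ATIC* E-box lies inside the deposited locus, which begins before the RefSeq start. The mRNA of these 4 genes differed little between conditions, with mean differences from -0.13 for *DHODH* to 0.03 for *ATIC*, each smaller than its SD over the time points.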

How the data were processed

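RNA-seq was made from rRNA-depleted RNA with 1 library per condition and time point (24 libraries), and ChIP-seq with 1 library per antibody and condition (10 libraries). The study extracted RNA in triplicate. How the 3 extracts became 1 library is not given in the sources used here. Per the labels, the authors used TopHat with Bowtie, Cufflinks, Bowtie2 and HOMER on hg38. The authors deposited FPKM per locus of a merged annotation, 1 table per condition, each scaled across its own 12 libraries. They deposited ChIP-seq signal as tags in 1000 bp scaled to 10000000 tags per library, and a HOMER peak score for peaks merged within 200 bp. The peak score was not used as a measurement. All per-sample columns were mapped, so 0 were left out.

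Loci with a mean FPKM of at least 1 over all libraries were kept as the background. A pseudocount of 1 was added before log2. Differences between the separately normalized tables were described and not tested. Trends and rhythms were tested within a table with limma 3.58.1 in R 4.3.3 (lmFit, eBayes with a variance trend, two-sided), and adjusted by Benjamini-Hochberg. In simulated data on the 13979 loci, slopes of 0.6 log2 per 24 hr were recovered for 96% of changed loci in control and 98% in 6AN, and slopes of 0.3 for 68% and 60%. Among unchanged loci, 12 in control and 10 in 6AN were called. Changed loci were drawn only from those with a higher mean level, and noise was independent between time points. The recovery therefore does not cover low members such as *CTPS2*, *DHODH*, *UMPS* and *TK2*. Other values were computed with Python 3.11.15 and pandas 2.3.3. Peaks were assigned within 10 kb of a locus. Promoter sequences and starts came from RefSeq on GRCh38.p14, where 28 of 30 members matched, *ADSS* under its newer symbol. The *PAICS* entry begins at a start outside the deposited locus of that gene, so its window is not that of the locus start. An additional *GART* row on an alternate contig was listed at 0 and left out.

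Time points are treated as replicates of a line or a cycle, so p-values measure only the spread between these libraries. No read counts were given, so the depth behind an FPKM is unknown except relative to other libraries and no counting interval was computed. The members and lists were chosen with earlier results of these data known. All members were named, and values at single time points were given for the 12 with the steepest called trends, which leaves out *ADSL*. Markers of cell type were named to check the label. In the other lists only called genes were named, up to 6 by size, with *RRM2B* as an addition, and 1 such gene is not reported here. Alternatives were a rescaling of libraries, a pseudocount of 0.1, no filter, first or last 6 time points, leaving out each time point, other model terms and other peak windows.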

Additional observations from a re-analysis of the deposited data

How the results depend on the processing

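Under rescaling of the libraries and a pseudocount of 0.1, the 30 differences between 6AN and control moved by less than their SD over time points. No called difference changed sign there. With only the first or last 6 time points, or without any single one, a mean cannot move by more than that SD. A call at all 12 points also fixes the sign in any part of them, so these settings do not check the single differences. The median of the 30 differences lay between -0.24 and -0.20 without single time points. Over the first 6 time points alone, 11 members had a 6AN range below that of control, and over the last 6, 13 had one and 2 lay above, since fewer points make separation easier. Without single time points these counts were 7 to 9 below and 1 above, and 11 to 14 members were lower at every point left. When the last 6 time points were set against the first 6, 0 members fell in control and 2 rose in 6AN, *ADSL* and *ATIC*, while 5 still fell in 6AN. The number falling in control was 0 to 1 without single time points, and that rising in 6AN 3 to 7, with the lower values without CT00 (4), CT04 (3) or CT44 (3). The cause was not tested. The number falling in 6AN stayed between 4 and 6. The shares of all expressed loci under these choices of time points are not given here. These counts therefore show only how the calls depend on the time points, and are not results about the members. With no filter on low values the call of *HPRT1* was lost. Peaks within 2 kb and 50 kb counted 12 and 20 members, where 28.1% and 46.9% of expressed loci had one. The libraries are matched by time label and differences were taken within each match, but they were not tested, since the tables were normalized separately. With 1 library per point, variation between experiments is not measured.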
